A study of Drosophila melanogaster with 4 samples.

Results

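Of the 13990 genes in the deposited table, 33 were low in wing discs that carried both Yki and added Tai and in no other genotype measured. They were chosen by their values. On the log2(FPKM + 1) scale, where FPKM is a fragment count scaled by transcript length and by library size, each gene lay 1 or more below each of the other 3 libraries in the Yki+Tai library. Its difference Yki minus GFP was also above -0.5, and its mean over the 4 libraries was 1 FPKM or more. Genes whose names begin with Cpr, Twdl, Osi, Hsp, HLHm, Gst, sno, snRNA, mir or tRNA were left out, which left 7741 genes to choose from. The 33 genes are 0.426% of these.

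The libraries came from Drosophila wing imaginal discs, the larval epithelia that form the adult wing and notum, taken from wandering larvae of the last (L3) instar raised at 25 °C. Each genotype was 1 library made from a pool of 80 to 100 discs, so no value has a replicate and no difference could be tested. All 4 genotypes carried GFP under the engrailed driver. By their titles, the Yki+Tai discs had Yki and Tai added, the Yki+Tai-IR discs Yki together with a construct for knockdown of tai, the Yki discs Yki and the GFP discs nothing further. The extraction protocol names GFP and GFP with Tai under this driver and no other genotype, so the genotypes rest on the titles. The driver acts in the posterior compartment, whereas RNA came from whole discs, so anterior cells without the transgenes were part of every library. The labels give neither the transgene insertions nor the sex of the larvae. In bulk RNA, fewer cells of a type and less RNA per cell cannot be told apart.

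Yki is the transcriptional coactivator of the Hippo growth pathway, which drives proliferation when the pathway is inactive. Tai (Taiman) is a steroid receptor coactivator that works with the ecdysone receptor, and it also binds Yki. In the wing disc, ecdysone late in larval life prompts the epithelium to stop dividing and to begin making cuticle.

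Added Yki and added Tai showed clearly in the libraries, whereas tai RNA was only slightly lower with the knockdown of tai. The level of tai was 1260.3 FPKM in Yki+Tai discs, 22.9 in Yki+Tai-IR discs, 25.0 in Yki discs and 27.1 in GFP discs. High tai RNA was seen in Yki+Tai discs, while the level in Yki+Tai-IR discs was close to that in Yki and GFP discs. The level of yki was 4535 FPKM in Yki+Tai discs, 2563 in Yki+Tai-IR discs, 5034 in Yki discs and 71.5 in GFP discs, so the Yki+Tai-IR library held less yki RNA than the other libraries with added Yki. Depth estimated from the steps between low values was 12.5 M fragments in Yki+Tai, 8.32 in Yki+Tai-IR, 9.58 in Yki and 8.06 in GFP. Summed levels of 3 posterior genes (en, inv and hh) were 195 FPKM in Yki+Tai discs, 94.3 in Yki+Tai-IR discs, 108 in Yki discs and 122 in GFP discs. Those of 3 anterior genes (ci, ptc and dpp) were 69.6 FPKM in Yki+Tai discs, 156 in Yki+Tai-IR discs, 120 in Yki discs and 203 in GFP discs. The Yki+Tai library had the highest posterior and the lowest anterior sum, and the anterior sum was carried by ci. The level of ptc was 19.9 FPKM in Yki+Tai discs, 32.3 in Yki+Tai-IR discs, 21.5 in Yki discs and 54.0 in GFP discs. That of dpp was 19.9 FPKM in Yki+Tai discs, 20.5 in Yki+Tai-IR discs, 16.9 in Yki discs and 21.1 in GFP discs, so dpp was not lowest with added Tai. The 5 wing pouch genes nub, vg, rn, bi and salm summed to 220 FPKM in Yki+Tai discs, against 187 in Yki+Tai-IR, 256 in Yki and 209 in GFP discs. The 5 leg genes Sp1, Dll, dac, AP-2 and fd96Cb summed to 85.4 FPKM in Yki+Tai discs, 191 in Yki+Tai-IR discs, 40.6 in Yki discs and 236 in GFP discs. Among them fd96Cb was at 11.6 FPKM in Yki+Tai discs, 51.0 in Yki+Tai-IR discs and 46.2 in GFP discs, and it was listed at 0 in Yki discs. Wing genes were thus present in every pool, and leg genes were high in Yki+Tai-IR and GFP, lower in Yki+Tai and lowest in Yki.

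The same rule without the limit on Yki minus GFP found 63 genes low in Yki+Tai alone, 18 low in Yki+Tai-IR alone, 29 low in Yki alone and 51 low in GFP alone. Of the 63, that limit removed 30. Genes high in Yki+Tai alone numbered 113. Being 1 or more below Yki in the Yki+Tai library was met by 2.09% of the 7741 genes, being 1 or more below Yki+Tai-IR by 4.25% and being 1 or more below GFP by 3.42%.

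**Figure D1:**
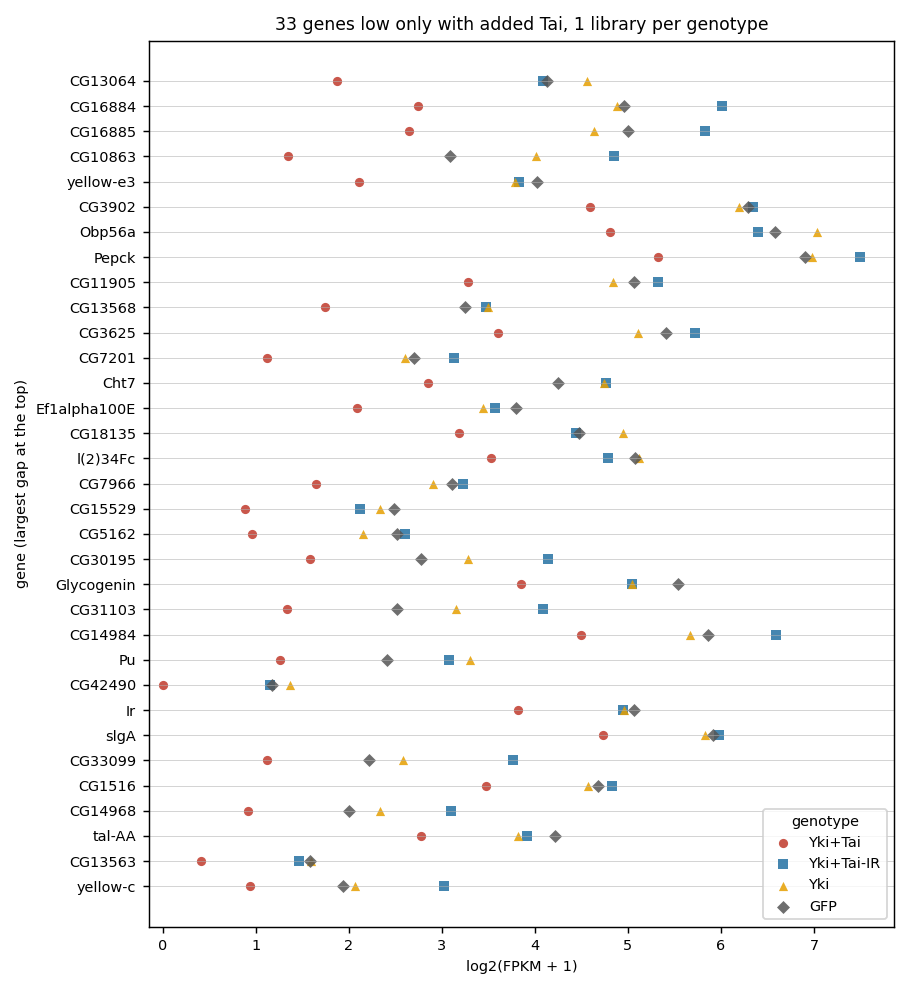
Level of each of the 33 genes on the log2(FPKM + 1) axis, 1 point per library (red circle Yki+Tai, blue square Yki+Tai-IR, yellow triangle Yki, grey diamond GFP), with genes ordered by the distance from Yki+Tai to the nearest other library. The red points lie at least 1 to the left of all others, from a distance of 2.22 for CG13064 at the top to 1.00 for yellow-c at the bottom, while the order of the other 3 differs from gene to gene.

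The distance from Yki+Tai to the nearest other library ran from 1.00 to 2.22 with a median of 1.26. The FPKM ratio of Yki+Tai to Yki had a median of 0.264 and ran from 0.102 to 0.456 over the 32 genes that were above 0. The ratio of Yki+Tai over Yki+Tai-IR had a median of 0.226 and ran from 0.0557 to 0.438. The ratio of Yki+Tai to GFP had a median of 0.295 and ran from 0.161 to 0.430. These sizes were fixed from above by the rule and are given as a description. Intervals given beside ratios are exact 95% Clopper-Pearson intervals on estimated fragments and cover counting error only. For the 32 genes with such an interval all 3 intervals lay below 1, and for 21 of them all 3 lay below 0.5. The genes were chosen by these same differences, so the interval counts are also a description and no test. The genes were mostly of middling to low level. The median of their mean level was 13.0 FPKM, against 26.6 FPKM over all genes the rule could choose, and 10 of them rested on under 20 estimated fragments in the Yki+Tai library.

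**Figure D2:**
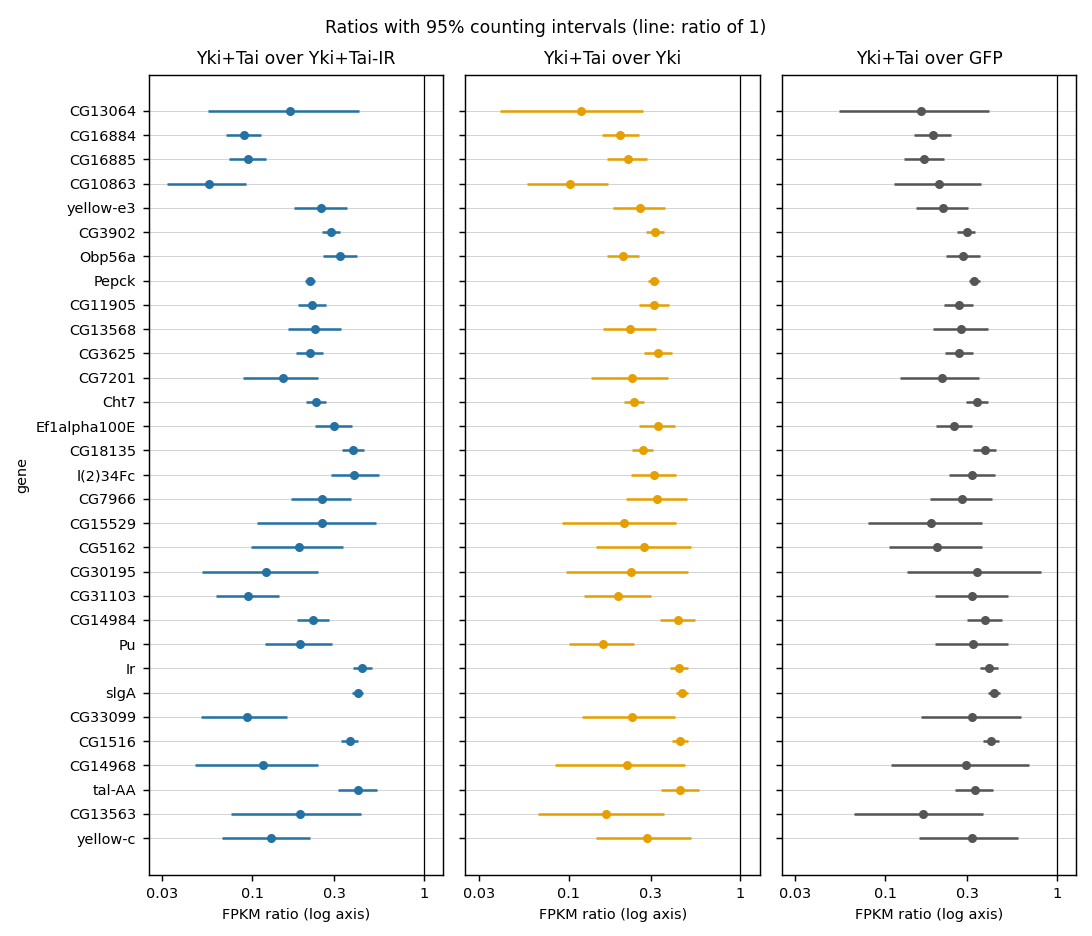
FPKM ratio of Yki+Tai over Yki+Tai-IR (left), to Yki (middle) and to GFP (right) on log axes for the 31 genes with both a ratio and a counting interval; points are ratios and bars 95% Clopper-Pearson intervals, and the line marks 1. All bars lie left of 1, for genes chosen by these differences, and the bars are widest for genes with few fragments such as CG13064 and CG14968.

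Several of the highest of these genes encode enzymes of intermediary metabolism. Pepck (annotated as Pepck1, chromosome arm 2R, 18536767 to 18539416, + strand) encodes phosphoenolpyruvate carboxykinase, which commits oxaloacetate to glucose synthesis. It was at 39.0 FPKM in Yki+Tai discs, 179 in Yki+Tai-IR discs, 125 in Yki discs and 118 in GFP discs. Only the Yki+Tai library was low, and the Yki+Tai-IR library was the highest. With 1110 estimated fragments in Yki+Tai this was the most deeply covered of the genes with an estimate, and its ratio of Yki+Tai to Yki was 0.312 (0.291 to 0.335). CG1516 (annotated as PCB, 2R, 9850703 to 9861543, - strand) encodes pyruvate carboxylase, which makes the oxaloacetate that Pepck uses. It was at 10.1 FPKM in Yki+Tai discs, 27.5 in Yki+Tai-IR discs, 22.8 in Yki discs and 24.5 in GFP discs. Here the other 3 libraries lay close together, and the ratio of Yki+Tai to Yki was 0.445 (0.398 to 0.497).

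Fructose-1,6-bisphosphatase (fbp), a later enzyme of the route, did not meet the rule. It was at 19.9 FPKM in Yki+Tai discs, 49.2 in Yki+Tai-IR discs, 36.3 in Yki discs and 53.2 in GFP discs, a ratio of Yki+Tai to Yki of 0.548 (0.463 to 0.651). The second phosphoenolpyruvate carboxykinase gene, CG10924 (Pepck2), was low throughout, at 1.301 FPKM in Yki+Tai discs, 2.35 in Yki+Tai-IR discs, 2.54 in Yki discs and 2.15 in GFP discs. All 4 measured genes of the gluconeogenesis list, which was chosen after the values had been seen, were thus lower in Yki+Tai than in Yki. The 2 that were lower by 1 or more, as were 2.09% of all genes, are the chosen genes themselves, and fbp and CG10924 differed by -0.84 and -0.62. The glycolysis list had 14 measured genes, of which none was lower in Yki+Tai than in Yki by 1 or more and 1 was higher by that much, against a share of 3.11% of all genes that were higher. The median difference of that list was 0.41.

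The gene slgA (X, 21374002 to 21385159, + strand) encodes proline dehydrogenase, the first enzyme of proline breakdown in mitochondria. Its level was 25.5 FPKM in Yki+Tai discs, 62.1 in Yki+Tai-IR discs, 56.0 in Yki discs and 59.3 in GFP discs. The other 3 libraries differed little, and its ratio of Yki+Tai to GFP, 0.430 (0.397 to 0.466), was the highest such ratio of the set. The gene for the following enzyme of the pathway, CG7145 (P5CDh1), was at 44.6 FPKM in Yki+Tai discs, 59.6 in Yki+Tai-IR discs, 70.0 in Yki discs and 59.4 in GFP discs. Its lower value in Yki+Tai was a matter of 0.64 on the log2 scale against Yki, and Gdh, which encodes glutamate dehydrogenase, differed by 0.076. Of these 3 genes slgA alone was lower in Yki+Tai than in Yki by 1 or more, beside 2.09% of all genes.

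Glycogenin primes new glycogen particles. This gene was at 13.5 FPKM in Yki+Tai discs, 32.1 in Yki+Tai-IR discs, 32.0 in Yki discs and 45.5 in GFP discs. Its symbol found no match in the annotation, so it has no position or interval here, and it was the member nearest to the limit on Yki minus GFP, at -0.50. The enzymes that extend and branch glycogen went the other way. Glycogen synthase, CG6904 (Glys), was at 122.5 FPKM in Yki+Tai discs, 79.7 in Yki+Tai-IR discs, 86.3 in Yki discs and 89.9 in GFP discs. The branching enzyme, CG33138 (AGBE), was at 38.6 FPKM in Yki+Tai discs, 29.2 in Yki+Tai-IR discs, 24.2 in Yki discs and 29.2 in GFP discs. Both were highest in the library where Glycogenin was lowest, by less than 1 on the log2 scale. Glycogen phosphorylase (GlyP) and UDP-glucose pyrophosphorylase (UGP) differed from Yki by 0.22 and -0.098 on the log2 scale in Yki+Tai. Of the 5 glycogen genes Glycogenin alone was lower in Yki+Tai than in Yki by 1 or more, beside 2.09% of all genes, and 2 were below 0.

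Pu (2R, 21175315 to 21182608, + strand) encodes GTP cyclohydrolase I, the entry enzyme of pteridine and tetrahydrobiopterin synthesis. It was at 1.402 FPKM in Yki+Tai discs, 7.43 in Yki+Tai-IR discs, 8.89 in Yki discs and 4.33 in GFP discs. The lowest of the other libraries was GFP, and 27 estimated fragments stood behind the Yki+Tai value. Of the 6 measured genes of pteridine synthesis Pu alone was lower in Yki+Tai than in Yki by 1 or more, beside 2.09% of all genes. The gene pr, for the next enzyme of the pathway, was at 41.3 FPKM in Yki+Tai discs, 56.7 in Yki+Tai-IR discs, 54.9 in Yki discs and 46.1 in GFP discs.

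The larval fat body is a main site of gluconeogenic and glycogen metabolism, and traces of it can cling to dissected discs. The 5 fat body markers Lsp2, Lsp1alpha, Lsp1beta, Fbp1 and Rfabg (apolpp) summed to 8.51 FPKM in Yki+Tai discs, 14.3 in Yki+Tai-IR discs, 12.1 in Yki discs and 18.6 in GFP discs. Of these markers 4 of 5 were lower in Yki+Tai than in Yki, while 49.6% of all genes were higher. Lsp1alpha was at 0.0710 FPKM in Yki+Tai discs, 1.97 in Yki+Tai-IR discs, 1.62 in Yki discs and 0.605 in GFP discs. Fbp1 went the other way, at 2.71 FPKM in Yki+Tai discs and 1.82 in Yki discs. In the wider fat body and serum list, with 11 measured genes, 1 was lower by 1 or more and 1 was higher, beside 2.09% and 3.11% of all genes. The sum of the 5 markers was lowest in the library where the chosen metabolic genes were lowest. Its highest value was in GFP, as for Glycogenin, while Pepck, CG1516 and slgA were highest in Yki+Tai-IR and Pu in Yki. The part of fat body RNA in the result was not tested.

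**Figure D3:**
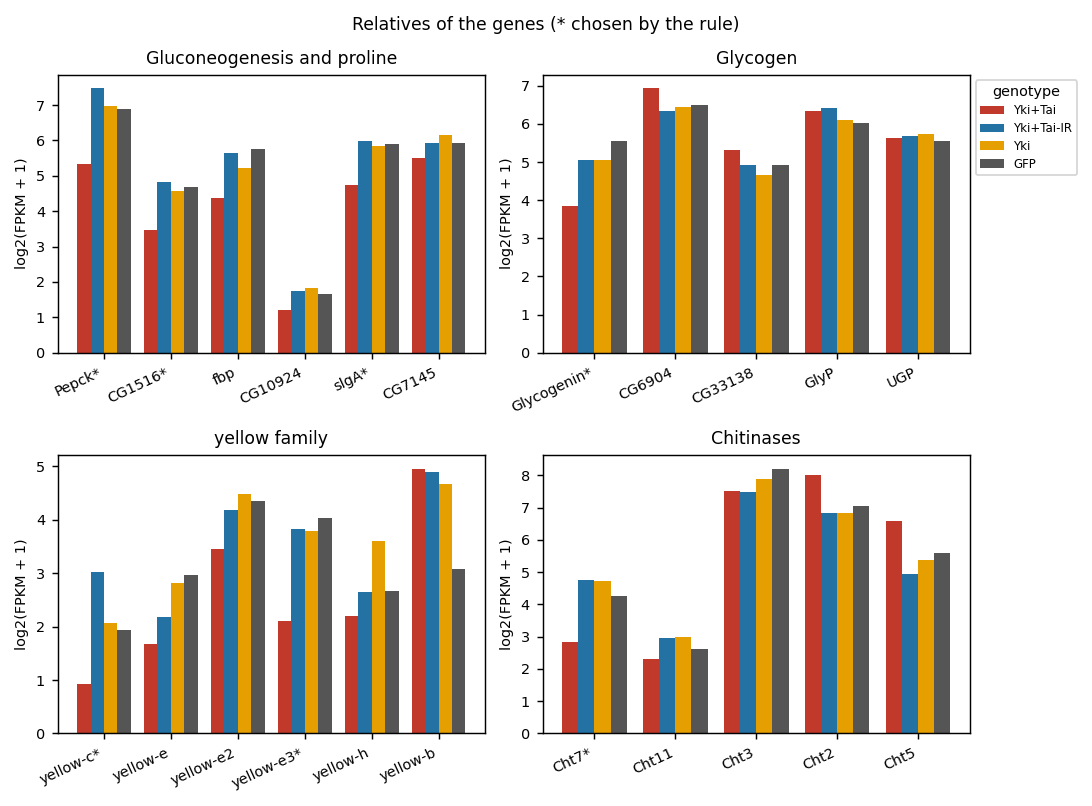
Level on the log2(FPKM + 1) axis of chosen genes (marked with an asterisk) and of related genes, with 1 bar per library in the order Yki+Tai (red), Yki+Tai-IR (blue), Yki (yellow) and GFP (grey). The red bar is the lowest for Pepck, CG1516, fbp, slgA, Cht7 and Cht11, among others. It is the highest of the 4 for the glycogen enzymes CG6904 and CG33138 and for the chitinases Cht2 and Cht5.

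A separate set of the genes belongs to the secreted proteins of cuticle-forming epithelia. CG16884 (annotated as Vajk3, 2L, 13944756 to 13947476, - strand) and CG16885 (Vajk2, 2L, 13932559 to 13934692, - strand) lie 10.1 kb apart on the same strand and belong to the Vajk family of insect cuticle proteins. CG16884 was at 5.70 FPKM in Yki+Tai discs, 63.7 in Yki+Tai-IR discs, 28.5 in Yki discs and 30.1 in GFP discs. CG16885 was at 5.26 FPKM in Yki+Tai discs, 55.7 in Yki+Tai-IR discs, 23.9 in Yki discs and 31.1 in GFP discs. The pair had nearly the same profile, lowest with added Tai and highest in Yki+Tai-IR. The ratio of Yki+Tai over Yki+Tai-IR was 0.0894 (0.0707 to 0.112) for CG16884 and 0.0945 (0.0732 to 0.121) for CG16885. The third family gene, CG16886 (Vajk1), was at 0.351 FPKM or less in every library.

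The genes yellow-e3 and yellow-c encode members of the Yellow family of secreted proteins, whose founding member is needed for dark cuticle pigment. yellow-e3 (3R, 13403423 to 13404870, - strand) was at 3.31 FPKM in Yki+Tai discs, 13.2 in Yki+Tai-IR discs, 12.8 in Yki discs and 15.3 in GFP discs. yellow-c (2L, 15035394 to 15037841, + strand) was at 0.909 FPKM in Yki+Tai discs, 7.11 in Yki+Tai-IR discs, 3.17 in Yki discs and 2.82 in GFP discs. The first had 3 similar values besides the low one, while the second was highest by far in Yki+Tai-IR. yellow-c was also the member closest to the limit, 1.0007 below GFP, with 15 estimated fragments in Yki+Tai, and it dropped out when libraries were rescaled by their median ratio.

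Further genes of the family were low in Yki+Tai without meeting the rule. yellow-e2, which lies 0.239 kb from yellow-e3 on the same strand, was at 9.94 FPKM in Yki+Tai discs, 17.2 in Yki+Tai-IR discs, 21.4 in Yki discs and 19.3 in GFP discs. yellow-e, 4.67 kb from yellow-e3, was at 2.19 FPKM in Yki+Tai discs, 3.52 in Yki+Tai-IR discs, 6.06 in Yki discs and 6.80 in GFP discs. These neighbours shared the low Yki+Tai value, but Yki+Tai-IR was less than 1 above it on the log2 scale. yellow-h was at 3.58 FPKM in Yki+Tai discs, 5.28 in Yki+Tai-IR discs, 11.1 in Yki discs and 5.35 in GFP discs, so that it was Yki that stood out. yellow-b was at 30.1 FPKM in Yki+Tai discs, 28.8 in Yki+Tai-IR discs, 24.4 in Yki discs and 7.50 in GFP discs, with no low value in Yki+Tai. Of 9 measured family genes 7 were lower in Yki+Tai than in Yki, 5 of them by 1 or more, beside 2.09% of all genes. The list was chosen after the values had been seen, and 2 of the 5 are the chosen genes. The neighbours yellow-e and yellow-e2 and the separate gene yellow-h make up the rest of the 5.

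Cht7 (3L, 3090985 to 3106958, - strand) encodes a chitinase of the class that acts in organising chitin layers. It was at 6.202 FPKM in Yki+Tai discs, 26.2 in Yki+Tai-IR discs, 25.7 in Yki discs and 18.0 in GFP discs. Its ratio of Yki+Tai to Yki was 0.241 (0.210 to 0.275). Cht11, at 3.99 FPKM in Yki+Tai discs and 6.94 in Yki discs, and Cht3, at 184 and 237, were also lower in Yki+Tai. The chitinases Cht2 and Cht5 differed in the opposite direction. Cht2 was at 255 FPKM in Yki+Tai discs, 112 in Yki+Tai-IR discs, 113 in Yki discs and 130.5 in GFP discs, and Cht5 was at 95.3 FPKM in Yki+Tai discs, 29.5 in Yki+Tai-IR discs, 40.8 in Yki discs and 47.3 in GFP discs. Of 5 measured chitinase genes 1 was lower in Yki+Tai than in Yki by 1 or more and 2 were higher by as much, beside 2.09% and 3.11% of all genes. In the wider list of chitin metabolism, with 21 measured genes, Cht7 was likewise the only gene lower by 1 or more. In that list 2 genes were higher by as much, 10 were below 0, and the median difference was 0.31.

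Obp56a (2R, 19697723 to 19698508, + strand) encodes a small secreted protein of the odorant-binding family. It was at 27.1 FPKM in Yki+Tai discs, 83.1 in Yki+Tai-IR discs, 129.8 in Yki discs and 94.95 in GFP discs. Yki was the highest library, and the ratio of Yki+Tai to Yki was 0.208 (0.168 to 0.257). Its neighbour Obp56d, 4.42 kb away, had another profile, with 9.96 FPKM in Yki+Tai discs, 443 in Yki+Tai-IR discs, 0.555 in Yki discs and 1.64 in GFP discs. These were the 2 measured genes of the Obp56 cluster. Of the 24 measured genes of odorant binding and chemosensation 2 were lower in Yki+Tai than in Yki by 1 or more, Obp56a itself being 1 of them, and 1 was higher, beside 2.09% and 3.11% of all genes.

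Another set encodes channels, a translation factor and a patterning peptide. Ir (annotated as Irk1, 3R, 23168317 to 23185642, + strand) encodes an inwardly rectifying potassium channel. It was at 13.1 FPKM in Yki+Tai discs, 29.9 in Yki+Tai-IR discs, 30.0 in Yki discs and 32.5 in GFP discs, with the other 3 libraries almost level. Of the 3 inward rectifier genes Ir was the 1 measured at a mean of 1 FPKM or more. The deposited table also lists CG13836, an older gene model that the annotation has merged with Ir, so the values depend on how fragments were shared between them. CG13568 (annotated as ppk29, 2R, 24052917 to 24057137, - strand) encodes a subunit of the pickpocket family of sodium channels, known in the fly from pheromone-sensing neurons. It was at 2.35 FPKM in Yki+Tai discs, 10.1 in Yki+Tai-IR discs, 10.3 in Yki discs and 8.52 in GFP discs. CG13563, also one of the 33, overlaps it on the opposite strand (2R, 24055306 to 24057599) and was at 0.332 FPKM in Yki+Tai discs, 1.75 in Yki+Tai-IR discs, 2.01 in Yki discs and 2.00 in GFP discs. The library kit did not mark strand, so the reads of these overlapping genes cannot be told apart where they share sequence, and the pair may count as a single low signal. The potassium channel gene sei overlaps the other end of CG13568 and was at 10.5 FPKM in Yki+Tai discs, 8.82 in Yki+Tai-IR discs, 9.84 in Yki discs and 11.1 in GFP discs, with no low value in Yki+Tai.

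Ef1alpha100E (annotated as eEF1alpha2, 3R, 31738468 to 31743306, + strand) encodes a translation elongation factor that brings aminoacyl-tRNA to the ribosome. It was at 3.26 FPKM in Yki+Tai discs, 10.9 in Yki+Tai-IR discs, 9.90 in Yki discs and 12.9 in GFP discs. tal-AA (3R, 13813109 to 13814648, + strand) is an open reading frame of the tarsal-less (polished rice) transcript, whose small peptides switch the Shavenbaby transcription factor into an activator of epidermal genes. It was at 5.83 FPKM in Yki+Tai discs, 14.1 in Yki+Tai-IR discs, 13.1 in Yki discs and 17.6 in GFP discs. The annotation gives the frame tal-1A exactly the same span, and the table has tal-1A at 0.308 FPKM in Yki+Tai discs, 0.313 in Yki+Tai-IR discs, 0.354 in Yki discs and 0.333 in GFP discs. The value of tal-AA is therefore set by how the authors' software shared the fragments of 1 transcript. l(2)34Fc (2L, 14349020 to 14351513, - strand) was at 10.5 FPKM in Yki+Tai discs, 26.7 in Yki+Tai-IR discs, 33.6 in Yki discs and 32.8 in GFP discs.

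The remaining genes are known in the sources used here by annotation numbers alone, and no role is given for them. CG13064 (3L, 16280404 to 16280860, + strand) had the widest gap of all. It was at 2.66 FPKM in Yki+Tai discs, 15.995 in Yki+Tai-IR discs, 22.6 in Yki discs and 16.5 in GFP discs, and the low value rested on 6 estimated fragments. The ratio of Yki+Tai to Yki was accordingly loose, at 0.118 (0.0398 to 0.273). CG3902 (3L, 18893120 to 18898293, - strand) was at 23.1 FPKM in Yki+Tai discs, 80.4 in Yki+Tai-IR discs, 72.4 in Yki discs and 77.5 in GFP discs. With 397 estimated fragments in Yki+Tai it was among the best measured, and the other 3 libraries were close to each other. CG11905 was at 8.72 FPKM in Yki+Tai discs, 38.9 in Yki+Tai-IR discs, 27.7 in Yki discs and 32.6 in GFP discs. CG3625 was at 11.2 FPKM in Yki+Tai discs, 51.7 in Yki+Tai-IR discs, 33.5 in Yki discs and 41.5 in GFP discs. Both had Yki+Tai-IR as the highest library and Yki as the nearest to Yki+Tai. CG18135 was at 8.05 FPKM in Yki+Tai discs, 20.8 in Yki+Tai-IR discs, 29.9 in Yki discs and 21.2 in GFP discs, with Yki the highest.

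A further 6 genes also have no role given. CG7201 was at 1.18 FPKM in Yki+Tai discs, 7.77 in Yki+Tai-IR discs, 5.07 in Yki discs and 5.49 in GFP discs. CG7966 was at 2.13 FPKM in Yki+Tai discs, 8.37 in Yki+Tai-IR discs, 6.51 in Yki discs and 7.63 in GFP discs. In both, the 3 other libraries differed less from each other than from Yki+Tai. CG15529 was at 0.849 FPKM in Yki+Tai discs, 3.35 in Yki+Tai-IR discs, 4.03 in Yki discs and 4.61 in GFP discs. CG5162 was at 0.948 FPKM in Yki+Tai discs, 5.09 in Yki+Tai-IR discs, 3.46 in Yki discs and 4.73 in GFP discs. These rested on 10 and 15 estimated fragments in Yki+Tai. CG14984 was at 21.6 FPKM in Yki+Tai discs, 95.1 in Yki+Tai-IR discs, 49.7 in Yki discs and 56.9 in GFP discs. CG42490, which the annotation lists as a pseudogene (CR42490), was listed at 0 in Yki+Tai discs and at 1.21 FPKM in Yki+Tai-IR discs, 1.59 in Yki discs and 1.25 in GFP discs. No fold was formed for it.

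The last 5 genes took the order Yki+Tai, GFP, Yki and Yki+Tai-IR, low to high, which was also that of Pepck, Cht7 and yellow-c. CG10863 (3L, 3941008 to 3942465, - strand), which lies 8.73 kb from CG14984 on the same strand, was at 1.55 FPKM in Yki+Tai discs, 27.8 in Yki+Tai-IR discs, 15.1 in Yki discs and 7.49 in GFP discs. Its ratio of Yki+Tai over Yki+Tai-IR, 0.0557 (0.0318 to 0.0914), was the lowest of the 32 genes with a ratio. CG31103 was at 1.52 FPKM in Yki+Tai discs, 15.98 in Yki+Tai-IR discs, 7.87 in Yki discs and 4.71 in GFP discs. CG30195 was at 1.99 FPKM in Yki+Tai discs, 16.6 in Yki+Tai-IR discs, 8.69 in Yki discs and 5.84 in GFP discs. For CG10863 and CG31103 the counting interval of Yki over GFP lay above 1. CG33099 was at 1.17 FPKM in Yki+Tai discs, 12.6 in Yki+Tai-IR discs, 5.005 in Yki discs and 3.63 in GFP discs. CG14968 was at 0.882 FPKM in Yki+Tai discs, 7.59 in Yki+Tai-IR discs, 4.03 in Yki discs and 3.004 in GFP discs. For CG30195, CG33099 and CG14968 the counting interval of Yki over GFP included 1, at 0.793 to 2.87, 0.874 to 2.28 and 0.728 to 2.59. Apart from CG31103 with 27, each of the 5 had under 20 estimated fragments in Yki+Tai.

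The comparison of Yki+Tai-IR with Yki was not part of the rule, although both libraries had to lie above Yki+Tai. On the log2(FPKM + 1) scale, the Yki+Tai-IR value lay above the Yki value in 23 of the 33 genes and below it in 10, whereas it lay above in 51.0% of all 7741 genes. The median difference of the 33 was 0.15, against 0.0069 over all genes, and 19 lay within 0.5 of 0, as did 88.2% of all genes. The genes CG16884, CG16885 and CG33099 were higher by 1 or more, at 1.13, 1.19 and 1.17, while 2.96% of all genes were. At the other end, Obp56a was lower in Yki+Tai-IR than in Yki by 0.64 and none was lower by 1 or more. For 16 genes the counting interval of the ratio of Yki+Tai-IR to Yki lay above 1, but the share of all genes was not computed. Deeply covered genes passed at small differences, such as slgA at 1.11 (1.04 to 1.19). For Obp56a (0.543 to 0.753) and CG18135 (0.619 to 0.780) the interval lay below 1. The difference in yki RNA between these libraries, given above, stands beside this comparison, and its part in the result was not tested.

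Against GFP, 7 genes were higher in Yki+Tai-IR by 1 or more, where 3.05% of all genes were. They were CG10863 at 1.76, CG31103 at 1.57, CG33099 at 1.55, CG30195 at 1.37, CG14968 at 1.10, yellow-c at 1.09 and CG16884 at 1.06. The median of all 33 was 0.16. Between Yki and GFP the 33 genes were split evenly, 16 higher in Yki and 17 lower, with a median of -0.076. No gene was 1 or more higher in Yki, where 1.81% of all genes were, and the largest difference was 0.93, while the rule itself set the lower end. Yki+Tai-IR was the highest library for 19 genes, Yki for 8 and GFP for 6. The 3 libraries without added Tai spanned under 0.5 on the log2 scale in 17 genes and 1 or more in 8. Shares of all genes were not computed for these counts or for those of the highest library. The median span was 0.50 over the 33 genes, against 0.31 over all genes the rule could choose. These comparisons share libraries, so their values are given side by side only.

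**Figure D4:**
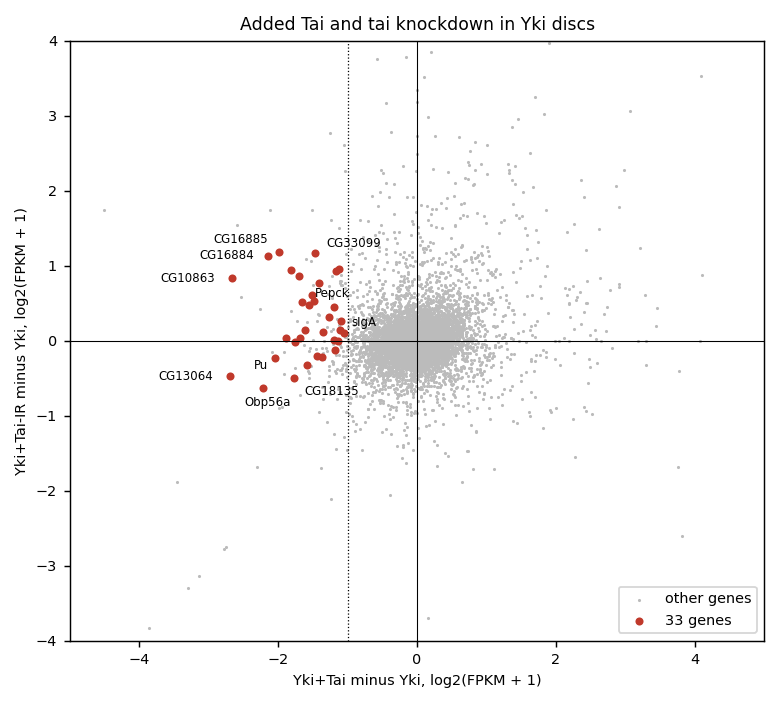
Difference Yki+Tai minus Yki (horizontal) against Yki+Tai-IR minus Yki (vertical) on the log2(FPKM + 1) scale for genes the rule could choose, with the 33 genes in red; both axes share the Yki library, the dotted line marks the limit of -1, and 12 genes fall outside the axes. The red points lie left of the dotted line by choice, and vertically they run from -0.64 (Obp56a) to 1.19 (CG16885), 23 of them above 0.

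Marker genes of other tissues and regions differed between these libraries as well. The anterior gene ci was at 29.8 FPKM in Yki+Tai discs, 103 in Yki+Tai-IR discs, 81.3 in Yki discs and 128 in GFP discs, and the limit on Yki minus GFP kept it out of the set. The part of this lower ci level in the result was not tested. The 5 salivary gland genes of the Sgs family summed to 0.547 FPKM in Yki+Tai discs, 13.0 in Yki+Tai-IR discs, 10.4 in Yki discs and 0.753 in GFP discs, and 4 of them were listed at 0 in Yki+Tai. The 6 sensory precursor markers summed to 22.3 FPKM in Yki+Tai discs, 64.5 in Yki+Tai-IR discs, 46.6 in Yki discs and 96.3 in GFP discs. The 6 adult myoblast markers summed to 34.1 FPKM in Yki+Tai discs, 63.3 in Yki+Tai-IR discs, 45.8 in Yki discs and 98.1 in GFP discs. These 3 sums were lowest in Yki+Tai, while the leg genes given above were lowest in Yki, with 3 of 5 higher in Yki+Tai than in Yki by 1 or more. By contrast, the 6 hemocyte markers were highest in Yki+Tai, with 30.2 FPKM in Yki+Tai discs, 5.33 in Yki+Tai-IR discs, 4.58 in Yki discs and 8.43 in GFP discs. None of the markers was among the 33 genes, and the part of these tissues in the result was not tested.

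Of the 42 lists of pathway, tissue and family genes examined, 3 held one of the 33, namely chemosensation (Obp56a), chitin metabolism (Cht7) and ion channels (Ir). The ion channel list took pickpocket genes by their symbols in the deposited table. It therefore missed CG13568 (ppk29), which is also one of the 33 and a channel gene. The ecdysone response list held none of the 33. Of its 32 measured genes, 3 were lower in Yki+Tai than in Yki by 1 or more and 6 were higher, beside 2.09% and 3.11% of all genes. The list of Yki targets also held none, and of its 19 measured genes none was lower and 2 were higher.

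In position, 6 of the genes lay on 2L, 7 on 2R, 9 on 3L, 8 on 3R and 2 on X. Of all genes the rule could choose, 17.5% lay on 2L, 20.4% on 2R, 19.9% on 3L, 24.2% on 3R and 17.1% on X. There were 3 pairs within 20 kb of each other, which are CG16884 with CG16885, CG10863 with CG14984, and the overlapping CG13563 and CG13568. Among 158 other measured genes within 20 kb, 8 were lower in Yki+Tai than in Yki by 1 or more (5.06%) and 6 were higher, beside 2.09% and 3.11% of all genes. The median difference of the 158 was -0.061. No names were left out of the 158, unlike the shares of all genes. Being lower than Yki was also not the whole rule. Of the 8, Hsc70-2 and CG31157 were near 0 in Yki+Tai-IR too, at 0.0608 and 0 FPKM. Another, CG12016, has the same span as CG42456, which differed by 4.10. Beside CG30195, CG34445 was at 5.16 FPKM in Yki+Tai discs, 37.2 in Yki+Tai-IR discs, 12.5 in Yki discs and 7.21 in GFP discs. Between them, CG34446 was listed at 0 in Yki+Tai discs, at 74.6 FPKM in Yki+Tai-IR discs, at 21.7 in Yki discs and at 0 in GFP discs. All 3 of these adjacent genes were highest in Yki+Tai-IR.

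The limits of the rule cut through a continuous range of values. Just inside the limit on the gap were yellow-c at 1.0007, CG13563 at 1.04 and tal-AA at 1.05. Just outside were CG14645 and CG30356, both at 0.98, and CG11155 at 0.97. CG14645 was at 13.4 FPKM in Yki+Tai discs, 31.2 in Yki+Tai-IR discs, 32.2 in Yki discs and 27.5 in GFP discs, a profile like that of many chosen genes. CG30356 was different, at 0.242 FPKM in Yki+Tai discs, 1.45 in Yki+Tai-IR discs, 55.3 in Yki discs and 58.1 in GFP discs. Just inside the limit on Yki minus GFP were Glycogenin at -0.50, tal-AA at -0.40 and CG16885 at -0.37, and just outside were CG33493 at -0.52, Reck at -0.54 and CG14598 at -0.55. The lowest mean level of a chosen gene was 1.01 FPKM, for CG42490.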

How the data were processed

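The deposited values are FPKM for 13990 genes in 4 libraries, 1 per genotype. Per the labels' protocols, 4 µg of total RNA from pooled discs was depleted of ribosomal RNA and made into TruSeq version 2 libraries, a kit that does not mark strand. The submitters' processing notes name CASAVA 1.4, TopHat2 2.0.12, the build dm6 and also Cuffdiff 2.2.1 as what the authors ran. The gene models and settings were not given in the sources used here. Because FPKM is relative, genes that take more of a library lower the rest.

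The members and gene lists were chosen with earlier results of these data known. A further 9 lists (gluconeogenesis, glycogen, proline, pteridine, yellow, Vajk, chitinase, inward rectifier and Obp56 genes) were chosen after values were seen, and revised once. In the chemosensory list, ionotropic receptors were matched by Ir followed by a digit, since the channel gene Ir had been caught. All members were named. Other genes were named where they lie at a limit, check the genotypes, or are relatives or neighbours chosen after their values were seen.

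No test was possible, as each genotype had 1 library. Differences used log2(FPKM + 1), which understates those of low genes, and called means 1 or more. Depth was sought at which low values of single-transcript genes become whole fragments, with 210 nt taken off the length. Of the values of 1119 to 1176 such genes, 72.4% to 74.7% came within 0.08 of whole fragments (chance gives 16%). At 3 fragments on 2 kb the floor is 0.134 FPKM in Yki+Tai, 0.201 in Yki+Tai-IR, 0.175 in Yki and 0.208 in GFP. Intervals of genes with several transcripts use the median length and are approximate. Positions come from the BDGP6 annotation (Ensembl release 115), whose coordinates are those of dm6. In it 13612 symbols were found and 378 were not. The selection was also run on simulated data with counting noise only, which hold no variation between pools of discs. Software was matplotlib 3.10.9, pandas 2.3.3, scipy 1.17.1 and numpy 2.4.6 under Python 3.11.15. No sequence is shown, since none was analysed here.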

Additional observations from a re-analysis of the deposited data

How the results depend on the processing

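The number of genes chosen depended on the scale. With a pseudocount of 0.1 the rule chose 64 genes, 32 of them among the 33, and with a pseudocount of 5 it chose 14, of which 13 were shared. Without the limit on Yki minus GFP it chose 63, all 33 included. Each of the other alternatives gave between 26 and 37 genes: other FPKM filters, rescaling (to equal FPKM sums or by median ratios), and leaving out zeros, genes under 500 nt or under 50 fragments, as well as keeping all name prefixes. Requiring all 3 counting intervals below 0.5, in place of the gap of 1 or more, chose 26 genes, 21 of them among the 33. The median differences between the libraries without added Tai were taken over the 33 genes, or those left by a filter, without choosing genes anew. They were run with other pseudocounts, with rescaling, with a higher FPKM filter and without zeros. The limit on Yki minus GFP thus still shaped them. Signs were kept, from 0.076 to 0.20 for Yki+Tai-IR minus Yki. The ranges were 0.14 to 0.19 for Yki+Tai-IR minus GFP and -0.079 to -0.020 for Yki minus GFP. No paired analysis was possible because each genotype had 1 library. Depth limits the low genes most, since 10 of the 33 rested on under 20 estimated fragments in Yki+Tai, and intervals do not cover variation between pools of discs.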
